A study of Mus musculus with 2 samples.

Results

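The 10 genes described here encode the 4 enzymes that turn tyrosine into adrenaline (Th, Ddc, Dbh and Pnmt) and 6 proteins that make, regulate or recycle tetrahydrobiopterin, the cofactor of tyrosine hydroxylase (Gch1, Gchfr, Pts, Spr, Qdpr and Pcbd1). They were chosen by symbol, and all 10 were found, among 22015 nuclear protein-coding genes and 55536 annotated genes in all. Their 51 annotated transcripts were taken from both transcript quantifications. Total RNA of the adrenal gland was sequenced in 2 libraries from male B6CASTF1/J mice (the first generation of a C57BL/6J by CAST/EiJ cross) at 14 days of age, without treatment or genetic change named in the labels. The labels name them biological replicates 1 and 2, and each began with 300 ng of RNA. The wording 3x Males points to pooled animals without explaining it. The pool number is shared in 1 label field and differs in another, and both tissues carry 1 donor record, so the SD may be technical. As both belong to 1 group, conditions could not be compared and the values carry no p-value.

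Catecholamines are made in the chromaffin cells of the adrenal medulla. Tyrosine hydroxylase (Th) makes L-DOPA in the rate-limiting step, aromatic amino acid decarboxylase (Ddc) makes dopamine, dopamine beta-hydroxylase (Dbh) makes noradrenaline inside the granules, and phenylethanolamine N-methyltransferase (Pnmt) makes adrenaline. Tetrahydrobiopterin is built from GTP by GTP cyclohydrolase (Gch1), pyruvoyltetrahydropterin synthase (Pts) and sepiapterin reductase (Spr), and is oxidised as tyrosine hydroxylase works. Pterin carbinolamine dehydratase (Pcbd1) and dihydropteridine reductase (Qdpr) return it to its active form, while the protein of Gchfr binds GTP cyclohydrolase and mediates feedback from tetrahydrobiopterin and phenylalanine.

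The tissue held both parts of the gland. All 6 chromaffin markers (summed level 1004 and 1080 TPM in replicates 1 and 2) and all 6 cortical markers (5005 and 5459 TPM) reached at least 1 TPM in both libraries, where TPM is a level corrected for gene length and sequencing depth. In whole gland RNA, fewer chromaffin cells and less RNA per cell cannot be told apart. The libraries held 32963248 and 36260745 expected counts. They stood apart in other cell types: 8 of 8 hepatocyte markers were higher in replicate 2 (summed level 303.3 against 5241 TPM), and 6 of 6 lymphocyte markers were higher in replicate 1 (40.6 against 5.98 TPM). None of the 6 kidney tubule markers reached 1 TPM in both libraries (summed level 0.68 and 0.69 TPM), and Umod and Slc12a1 had 0 counts in both. Brown fat (2718 and 2760 TPM), endothelial (159.1 and 136.5 TPM) and glial markers (17.1 and 26.8 TPM) lay closer between the libraries.

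The sequences upstream of 3 start sites are shown because the results on transcript use below turn on them: the single start that RSEM used for Th, and the pair of Ddc starts between which the quantifications disagreed. They are from RefSeq (GRCm38.p6, the mm10 assembly), 5′ to 3′ on the strand of the gene, which is the minus strand for both genes. Each ends at the base before the annotated first exon, and capitals mark the motif matches described next.
Th, chr7:142900015-142900245, minus strand: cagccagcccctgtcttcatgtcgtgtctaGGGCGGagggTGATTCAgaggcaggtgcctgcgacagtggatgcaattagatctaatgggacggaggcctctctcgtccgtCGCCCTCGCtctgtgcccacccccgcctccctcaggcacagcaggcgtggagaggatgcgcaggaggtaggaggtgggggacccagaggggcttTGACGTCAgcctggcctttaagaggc
Ddc upstream start, chr11:11898145-11898394, minus strand: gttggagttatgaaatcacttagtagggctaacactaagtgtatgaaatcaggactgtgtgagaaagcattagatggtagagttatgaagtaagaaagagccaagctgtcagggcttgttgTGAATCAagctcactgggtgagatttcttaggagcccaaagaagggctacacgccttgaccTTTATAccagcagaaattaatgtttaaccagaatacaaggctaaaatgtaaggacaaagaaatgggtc
Ddc downstream start, chr11:11890409-11890658, minus strand: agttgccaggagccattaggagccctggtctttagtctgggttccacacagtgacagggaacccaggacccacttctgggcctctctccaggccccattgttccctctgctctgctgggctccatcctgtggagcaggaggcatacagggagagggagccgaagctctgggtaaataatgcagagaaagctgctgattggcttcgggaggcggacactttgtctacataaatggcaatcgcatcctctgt
The Th window of 231 bases held the cyclic AMP response element TGACGTCA, 19 to 26 bases from its end. This sequence was present in 1.30% of 32851 RefSeq windows cut to the same length. The window also held the AP-1 motif TGANTCA (6.36% of windows of that length) and the GC box GGGCGG (30.0%). The EGR1 motif GCGNGGGCG (4.05%) lay on the opposite strand. The upstream Ddc window of 250 bases held the AP-1 motif (6.75% of windows of that length) and TATAAA on the opposite strand (12.4%). The downstream Ddc window held none of the 6 motifs searched, which were these 5 and the HNF1 half-site GTTAAT (6.43%). Both strands were searched and no matches overlapped.

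Of the 9 members with an entry in the RefSeq promoter table, the windows of 2 cofactor genes are given because their levels differed most between the libraries.
Gchfr, chr2:119167538-119167772, plus strand: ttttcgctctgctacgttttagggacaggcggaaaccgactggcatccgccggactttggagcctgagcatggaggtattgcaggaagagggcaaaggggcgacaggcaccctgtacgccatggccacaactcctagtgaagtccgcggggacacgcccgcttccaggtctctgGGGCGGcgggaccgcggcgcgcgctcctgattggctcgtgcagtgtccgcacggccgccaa
Pcbd1, chr10:61089081-61089330, plus strand: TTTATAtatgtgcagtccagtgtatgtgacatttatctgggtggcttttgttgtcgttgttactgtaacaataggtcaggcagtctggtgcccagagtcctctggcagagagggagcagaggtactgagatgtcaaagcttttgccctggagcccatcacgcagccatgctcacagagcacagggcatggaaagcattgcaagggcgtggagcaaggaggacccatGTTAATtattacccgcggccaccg
The Gchfr window of 235 bases held 1 GC box, found in 30.6% of windows of that length. The Pcbd1 window of 250 bases held GTTAAT 19 to 24 bases from its end, and TATAAA on the opposite strand at its far end. A match is a description of the letters and no evidence of binding.

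Pnmt, Th and Dbh led the 10 genes. They ranked 200, 312 and 430 among nuclear protein-coding genes by mean TPM. Pnmt (chromosome 11, 98386450 to 98388181, plus strand, mm10) stood at 204.8 TPM in replicate 1 and 185.4 in replicate 2, a mean of 195.1 ± 13.7 (SD, n = 2), from 7090 and 6968 expected counts. Th (chromosome 7, 142892752 to 142931128, minus strand) stood at 133.1 and 130.9 TPM, from 7565 and 8066 counts. Dbh (chromosome 2, 27165233 to 27183200, plus strand) stood at 104.5 and 90.1 TPM, from 8337 and 7876 counts. The ranges of these 3 genes over the 2 libraries did not overlap one another, so their order was the same in both libraries. Pnmt exceeded Dbh 1.96-fold in replicate 1 and 2.06-fold in replicate 2, and Th exceeded Dbh 1.27-fold and 1.45-fold.

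Ddc, the step between Th and Dbh, was far lower. Ddc (chromosome 11, 11814101 to 11898144, minus strand) stood at 17.7 and 18.5 TPM, from 944 and 1008 counts, and ranked 3110. By RSEM, Th exceeded it 7.52-fold in replicate 1 and 7.06-fold in replicate 2, and Dbh exceeded it 5.91-fold and 4.86-fold. The gaps were wider by kallisto, 11.1-fold and 10.4-fold for Th and 7.43-fold and 5.94-fold for Dbh. Both libraries therefore placed the decarboxylase messenger below those of the steps on either side, at the level of the cofactor genes.

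Among the cofactor genes, Qdpr, which recycles the quinonoid form, was the highest. Qdpr (chromosome 5, 45434021 to 45450236, minus strand) stood at 37.7 and 37.8 TPM, from 1502 and 1612 counts, and ranked 1284. The 3 synthetic enzymes lay lower. Pts (chromosome 9, 50521617 to 50528724, minus strand), the second enzyme, stood at 18.4 and 19.9 TPM. Spr (chromosome 6, 85130176 to 85137766, minus strand), the last enzyme, stood at 16.1 and 17.4 TPM. Pts exceeded Spr 1.14-fold and 1.15-fold in replicates 1 and 2 by RSEM, and 1.72-fold and 1.56-fold by kallisto. Gch1 (chromosome 14, 47153895 to 47189413, minus strand), the first and rate-limiting enzyme, was the lowest of the 3 at 11.2 and 13.8 TPM, from 996 and 1334 counts. Th exceeded Gch1 11.9-fold in replicate 1 and 9.46-fold in replicate 2 by RSEM, and 15.6-fold and 12.9-fold by kallisto.

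Over the 4 catecholamine enzymes the median level was 118.8 and 110.5 TPM in replicates 1 and 2, against 13.6 and 17.9 TPM over the 6 cofactor genes. The difference of the median log2 TPM was 3.14 and 2.60, a mean of 2.87 ± 0.378 (SD, n = 2), so it was larger than its spread between the libraries. Ddc did not share in it. The 10 genes took 0.201% and 0.195% of all TPM on nuclear protein-coding genes, of which the 4 enzymes took 0.168% and 0.153%.

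In the RSEM order Pnmt, Th, Dbh, Qdpr, Pts, Ddc, Spr, Gch1, Pcbd1 and Gchfr, 6 of 9 neighbouring pairs had ranges that did not overlap. Kallisto turned the order of 2 neighbouring pairs. It placed Spr (22.5 and 24.8 TPM) above Ddc (20.8 and 22.3 TPM), and Pcbd1 above Gch1 on the means (17.5 against 16.4 TPM). By RSEM, ranges overlapped for 3 pairs. The pairs that overlapped were Pts with Ddc, Gch1 with Pcbd1, and Pcbd1 with Gchfr. The gap between Ddc and Spr, 1.08-fold on the means, was smaller than the deposited credibility bounds of either gene, which ran from 16.3 to 19.8 TPM for Ddc and from 14.7 to 17.3 TPM for Spr in replicate 1.

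**Figure D1:**
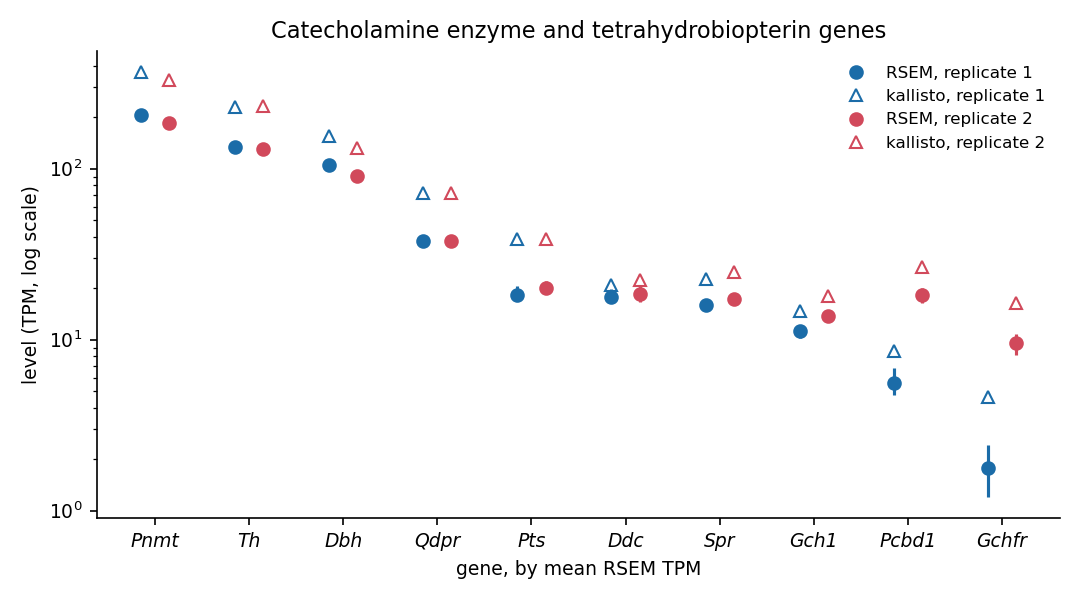
Level of each gene in TPM (log axis), ordered by mean RSEM TPM. Filled circles are RSEM values with their deposited credibility bounds as vertical lines and open triangles kallisto values, blue for replicate 1 and red for replicate 2. Pnmt, Th and Dbh lie above 90 TPM in both libraries by RSEM, and Gchfr and Pcbd1 show the widest gaps between the libraries.

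Of the cofactor genes, Gchfr and Pcbd1 differed over 2-fold between the libraries, and the other 4 by at most 1.24-fold. Gchfr (chromosome 2, 119167773 to 119172390, plus strand), the feedback regulator, stood at 1.78 TPM in replicate 1 and 9.56 in replicate 2. Its expected counts were 32 (95% exact Poisson interval 21.9 to 45.2, counting error only) and 186 (160.2 to 214.7), a 5.37-fold difference in TPM. Pcbd1 (chromosome 10, 61089331 to 61094324, plus strand), the dehydratase of the recycling branch and also a binding partner of the liver factor HNF1, stood at 5.60 and 18.3 TPM. Its counts were 127 (105.9 to 151.1) and 447 (406.5 to 490.4), a 3.28-fold difference. The deposited credibility bounds did not overlap between the libraries for either gene. Nor did they for Dbh, Pnmt and Gch1, whose differences were smaller (1.16-fold, 1.10-fold and 1.24-fold). These bounds hold the estimation error within 1 library. The share of all genes whose bounds did not overlap was not computed, so no excess among the members can be read from them. By kallisto the differences were 3.54-fold for Gchfr and 3.06-fold for Pcbd1.

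On the log2(TPM + 1) scale, replicate 2 minus replicate 1, the difference was 1.93 for Gchfr and 1.55 for Pcbd1, and the other 8 genes lay between -0.21 (Dbh) and 0.28 (Gch1). Beyond 2-fold on that scale, 2 of 10 members were higher in replicate 2 and 0 of 10 in replicate 1. The background was 8314 nuclear protein-coding genes that averaged at least 5 TPM, of which 2.17% were higher in replicate 2 by that rule and 0.433% in replicate 1. All 10 members met that minimum, but Gchfr only through replicate 2. The median absolute difference was 0.13 over the members and 0.12 over the 8314 genes, so the typical member differed between the libraries about as much as other genes did. Differences near 0 depended on the scaling: 7 members were higher in replicate 2 as deposited, 5 after scaling to the spike-ins and 8 after TMM scaling.

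Liver markers moved with Gchfr and Pcbd1. All 8 hepatocyte markers were over 2-fold higher in replicate 2, with a median log2 difference of 3.94, and Alb, which encodes albumin, stood at 172.5 and 3072 TPM. The lymphocyte markers, higher in replicate 1, also separated the libraries, whereas the chromaffin markers had a median log2 difference of 0.08 and none beyond 2-fold. The part of liver or lymphoid RNA in the levels of Gchfr and Pcbd1 was not tested. Relative to its enzyme by RSEM, Gchfr stood at 0.159 of Gch1 in replicate 1 and 0.691 in replicate 2, and Pcbd1 at 0.148 and 0.486 of Qdpr, so each ratio was higher in replicate 2. By kallisto these ratios were 0.312 and 0.908, and 0.121 and 0.366.

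**Figure D2:**
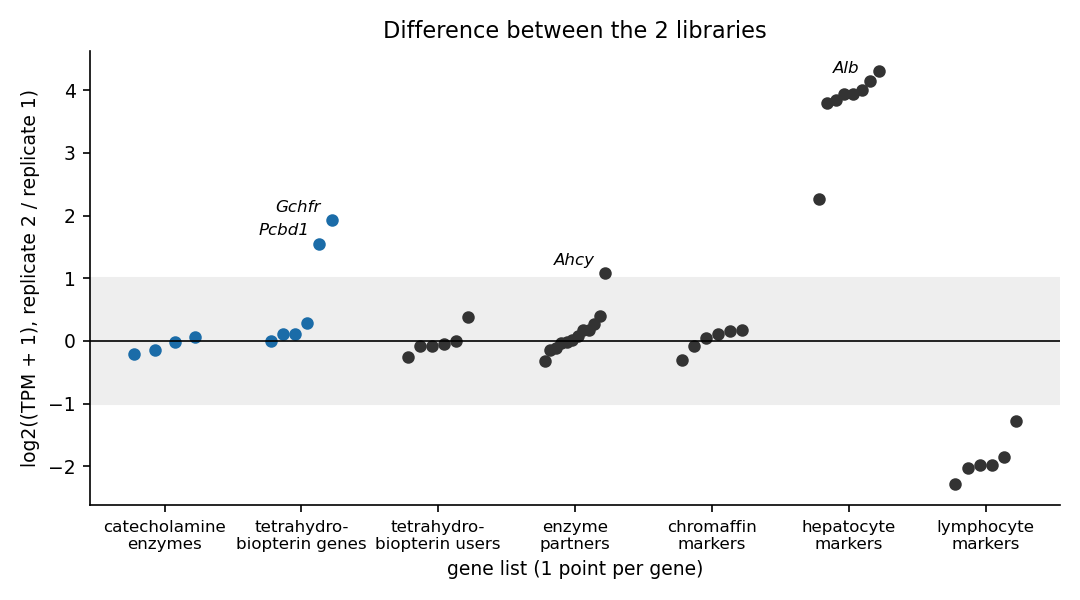
Log2 ratio of (TPM + 1), replicate 2 over replicate 1, for the 4 catecholamine enzymes and 6 tetrahydrobiopterin genes (blue) and 5 other gene lists (black), with 1 point per gene and the range within 2-fold shaded. Gchfr and Pcbd1 lie above the shaded range, as do Ahcy and all 8 hepatocyte markers, while all 6 lymphocyte markers lie below it.

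The 6 further users of tetrahydrobiopterin reported here were low. Of these, 2 reached 1 TPM in both libraries: Nos3, the endothelial nitric oxide synthase, at 4.87 and 4.53 TPM, and Agmo, which cleaves ether lipids, at 3.25 and 4.57 TPM. Tph2, the neuronal tryptophan hydroxylase, had 0 counts in both libraries. The 3 further enzymes near the cofactor pathway reported here all reached 1 TPM in both libraries. Akr1b3 (48.0 and 40.7 TPM) and Cbr1 (39.1 and 34.6 TPM), reductases that can act on the intermediate of Pts, stood above Spr. Pcbd2, the second dehydratase, stood at 16.6 and 19.6 TPM, so its libraries lay closer than those of Pcbd1.

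All 12 partner genes of the 4 enzymes reached 1 TPM in both libraries, and their median log2 difference was 0.05. That level was also reached by 11942 of the 22015 nuclear protein-coding genes, so detection alone is not particular to the partners. The same background applies to the lists that follow. The highest were Ywhae (170.8 and 158.0 TPM) and Ywhaz (109.6 and 106.6 TPM), 14-3-3 proteins of the family that binds phosphorylated tyrosine hydroxylase, then Mat2a (68.5 and 69.4 TPM), which makes the methyl donor used by Pnmt, and Slc3a2 (47.3 and 53.8 TPM), a subunit of amino acid transporters. Ahcy, which removes the product of methyl transfer, stood at 16.0 and 35.0 TPM and was the 1 partner beyond 2-fold by RSEM. By kallisto it differed 1.76-fold and was not beyond it. It was named after its values were seen.

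The 7 genes of storage and breakdown reported here were lower than Th, and all 7 reached 1 TPM in both libraries. They were led by Sult1a1, a sulfotransferase (21.7 and 22.6 TPM), Maob, a monoamine oxidase (6.33 and 9.74 TPM), Slc18a1, a vesicular monoamine transporter that is also a chromaffin marker here (5.98 and 6.88 TPM), and Slc6a2, the noradrenaline transporter (8.98 and 3.13 TPM). Slc6a2 was the 1 gene of the 7 beyond 2-fold, higher in replicate 1.

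Of 14 transcription factors known to act on these enzyme genes or on chromaffin cells, 12 reached 1 TPM in both libraries and none lay beyond 2-fold. The highest were Nr4a1 (95.1 and 183.4 TPM), an immediate early gene, Egr1 (17.1 and 24.1 TPM), which binds the Pnmt promoter, the general factor Sp1 (19.3 and 19.9 TPM) and the glucocorticoid receptor Nr3c1 (14.6 and 17.1 TPM), through which cortical steroids induce Pnmt. Nr4a1 and Egr1 were both higher in replicate 2. On the log2(TPM + 1) scale the difference of Pnmt was -0.14. That of Th was -0.02, and its sign turned by kallisto (0.01) and under TMM scaling. Any link between these factors and the levels of Pnmt or Th was not tested.

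Markers of other monoamine cells were sparse. The 3 genes of dopamine neurons summed to 0.09 and 0.06 TPM, and none was detected at 1 TPM. Of 4 serotonergic genes, Slc6a4, the serotonin transporter, was the 1 that reached 1 TPM, at 9.88 and 10.4 TPM.

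RSEM placed most members mainly on 1 transcript, and the share of all genes that meet the 90% rule below was not computed. By RSEM, 7 of 10 genes had at least 90% of their TPM on 1 transcript in both libraries, counting Gchfr, which has 1 annotated transcript. The leading transcript held 98.9% and 100% of Dbh, 99.8% and 100% of Pnmt, 95.2% and 95.9% of Gch1, 98.9% and 94.8% of Spr, and 100% and 98.6% of Pcbd1 in replicates 1 and 2. The remainder of Gch1 was on a transcript with a retained intron (4.83% and 4.12%). Counts fell on 40 of the 51 transcripts, for which no share over all genes was computed either.

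None of the members changed its leading RSEM transcript between the libraries, against 8.87% of 7746 protein-coding genes with more than 1 transcript and at least 5 TPM on average. The leading transcript differed between RSEM and kallisto, in both libraries, for 19.8% of the 7746 genes. Among the 9 members with more than 1 transcript it differed for 1, Ddc.

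Ddc has alternative first exons, which are known in mammals to differ in use between neural and other tissues. The upstream first exon (Ddc-210, 133 bases) and the downstream first exon (Ddc-202, 71 bases) begin 7736 bases apart, and both are spliced to the same second exon, which holds the start codon. The coding sequence of 1440 bases is identical, so these transcripts differ outside the coding sequence alone and encode 1 protein. RSEM placed 94.2% of Ddc TPM in replicate 1 and 81.2% in replicate 2 on transcripts of the downstream start, and 3.84% and 8.58% on those of the upstream start. Kallisto placed 4.03% and 7.34% on the downstream start and 93.6% and 81.8% on the upstream start.

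The disagreement was largest in the split. The gene total was 20.8 and 22.3 TPM by kallisto, against 17.7 and 18.5 TPM by RSEM. That rise, 1.18-fold and 1.20-fold, was smaller than the median of 1.53-fold and 1.51-fold over the 8314 genes. Ddc-202 led by RSEM with 75.4% and 60.9%, followed by Ddc-209, a shorter transcript of the same start, whereas kallisto gave Ddc-202 0 TPM in replicate 1 and 0.0696 TPM in replicate 2. Between Ddc-202 and Ddc-210 the bases that tell them apart are few: 71 bases of Ddc-202, 3.63% of its length, are not in Ddc-210, and 135 bases of Ddc-210 are not in Ddc-202. Each quantification gave the same start in both libraries, so the replicates do not resolve the difference. Its cause was not tested, and which start the gland used cannot be read from these tables.

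**Figure D3:**
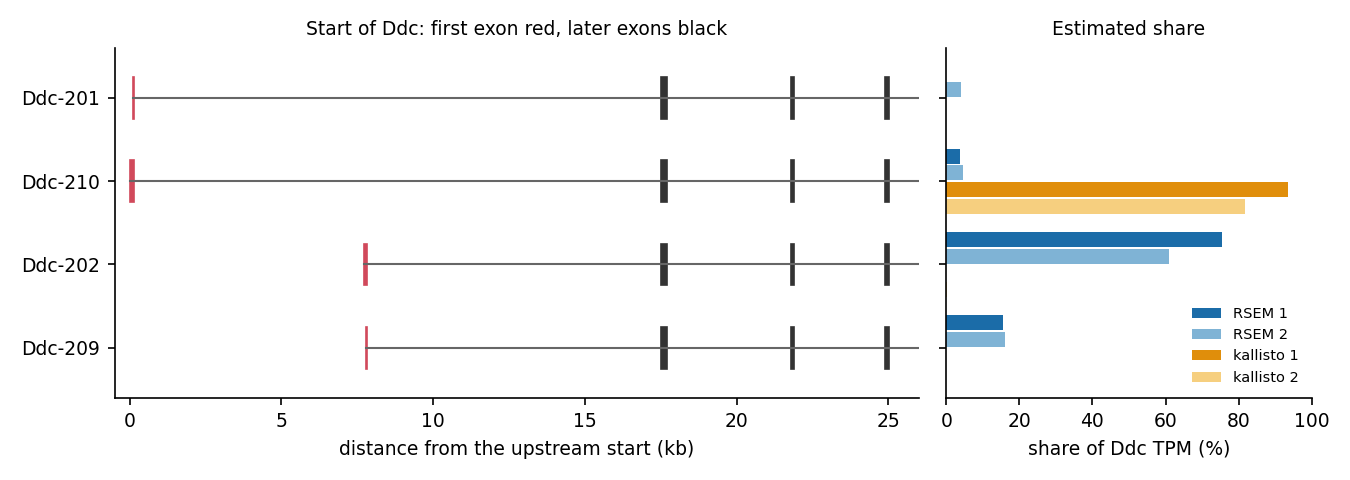
Left, the first exons (red) and next exons (black) of 4 Ddc transcripts by distance in kb from the upstream start. Right, the share of Ddc TPM on each in percent, by quantification and replicate (1 or 2). The RSEM bars are longest for Ddc-202 of the downstream start and the kallisto bars for Ddc-210 of the upstream start.

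Th also has a second start in the annotation, 31106 bases upstream, with its own start codon. RSEM placed all of Th on Th-201, which begins at the window shown above with the cyclic AMP response element, and 0% on the far upstream start. Kallisto gave Th-201 82.7% and 75.1%, and placed 12.2% and 11.3% on the far upstream start, all of it on Th-206 (508.2 and 525.8 estimated counts). The main start thus led in both quantifications, with 87.8% and 88.7% by kallisto. The first exon of Th-206 (527 bases) lies within that of Th-202 and is no part of Th-201. The cause of this difference was not tested either.

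Pts and Qdpr were divided among several transcripts too. Pts-201 held 65.0% and 69.9% of Pts by RSEM and 42.4% and 49.5% by kallisto, and transcripts with a retained intron held 16.7% and 11.6% by RSEM and 12.9% and 9.15% by kallisto. Pts-206, a transcript of 511 bases, took 9.02 and 10.9 TPM by kallisto against 0.48 and 0.95 TPM by RSEM. Qdpr-201 held 73.7% and 75.5% by RSEM and 61.1% and 60.8% by kallisto. Within Qdpr, whose total was stable, RSEM gave Qdpr-203 6.63 TPM in replicate 1 and 0.41 in replicate 2, and Qdpr-202 0 and 3.68 TPM. The deposited bounds of each overlapped between the libraries, reaching 6.7 and 6.96 TPM for Qdpr-203 and 5.6 and 4.34 TPM for Qdpr-202 at the upper end and near 0 at the lower. Kallisto gave both transcripts under 1 TPM in each library. Qdpr-203 has no base that is not in Qdpr-201.

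**Figure D4:**
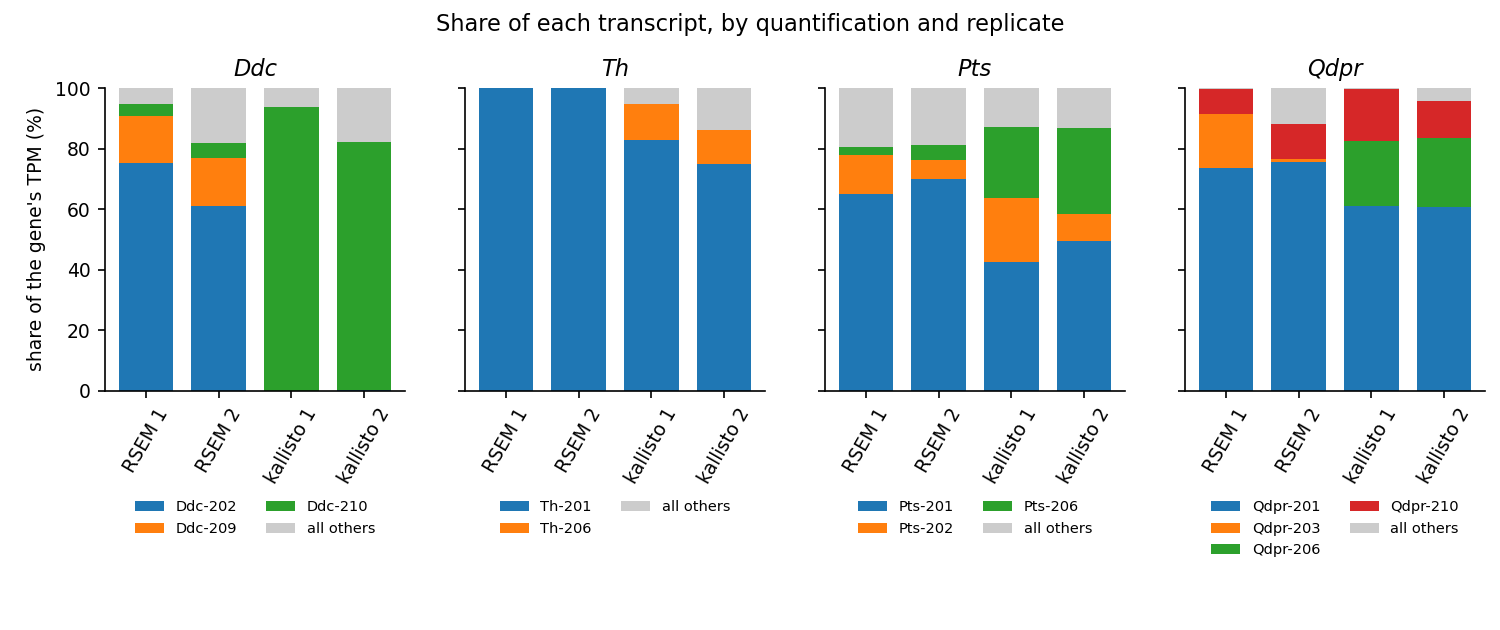
Share of the TPM of Ddc, Th, Pts and Qdpr on each transcript in percent, by quantification and replicate (1 or 2), with transcripts below 10% in every bar joined in grey. Th-201, Pts-201 and Qdpr-201 are the largest block in all 4 bars of their gene, and the largest block of Ddc is Ddc-202 by RSEM and Ddc-210 by kallisto.

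Both quantifications rest on the same reads and are not replicates. All 10 members were higher by kallisto, by a median of 1.64-fold and 1.59-fold in replicates 1 and 2, against 1.53-fold and 1.51-fold over the 8314 genes. Ddc moved least (1.18-fold and 1.20-fold) and Gchfr most in replicate 1 (2.59-fold). Levels are therefore compared within 1 quantification.

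Annotated neighbours added little. Ddc and Qdpr overlap antisense genes, 1700042O10Rik at 0.06 and 0 TPM and Gm42413 at 0 TPM in both libraries, and Gch1 contains the pseudogenes Gm49134 (0 TPM in both) and Gm18811 (0.48 and 0.55 TPM). The library kit keeps strand, but whether the counting used it is not given in the sources used here.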

How the data were processed

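The 2 quantifications of the same reads were used. Expected counts, TPM and FPKM (unused) per gene and transcript were deposited by the authors, from alignments to mm10 with GENCODE M21, per the deposited file list. Per the file headers, these tables have the columns of RSEM. Also deposited by the authors were the percent of a gene's TPM on each transcript and a signal without a fixed total, the lower and upper credibility bounds of each TPM. Estimated counts and TPM with the column names of kallisto, per the file headers, were summed here to genes. Not given in the sources used here are aligner and tool versions. The effect of CAST alleles on alignment was not measured. The TPM deposited by the authors span every entry, spike-ins and noncoding RNAs included, and protein-coding nuclear genes held 27.4% and 27.8%.

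RSEM TPM was the main unit. Differences between libraries used log2(TPM + 1), a minimum mean of 5 TPM and a 2-fold limit. Detected means at least 1 TPM in both libraries, which 11942 of 22015 nuclear protein-coding genes met. Every member is named. Of other lists, up to 4 detected genes by highest mean and genes with 0 counts in both libraries are named, with exceptions stated beside them. Some listed genes are not reported here and were left out of the list counts. The members and lists were chosen with earlier results of these data known. The code of the 2-fold rule, run on simulated data for 8900 genes, recovered 200 of 200 genes changed 4-fold and called 2 unchanged ones. The simulation held no counting error and only genes of at least 5 TPM in replicate 1, which leaves out Gchfr. It therefore checks the code and gives no rate of false calls for these libraries. Depth limits Gchfr and Pcbd1 most. TMM factors came from edgeR 4.0.16 in R 4.3.3 on rounded expected counts, and the rest was computed in Python 3.11.15 (scipy 1.17.1, numpy 2.4.6, pandas 2.3.3, matplotlib 3.10.9). No paired analysis was possible because there is 1 group.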

Additional observations from a re-analysis of the deposited data

How the results depend on the processing

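With 1 library a side, the differences between the libraries have no replicate check, and 32 counts of Gchfr in replicate 1 are the thinnest base of any member. No paired analysis was possible because there is 1 group.

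Gchfr and Pcbd1 remained the 2 members beyond 2-fold by kallisto. Minimum levels below 5 TPM could not change this count, because all 10 members average at least 5 TPM. A mean of at least 20 TPM left 0 members beyond 2-fold, since Gchfr and Pcbd1 lie under it. Their log2 differences moved with the pseudocount, to 1.10 and 1.14 with 5 TPM. The downstream share of Ddc was 87.7% on average by RSEM and 5.69% by kallisto, and the cause was not tested. The members' median log2 ratio of kallisto to RSEM, relative to all genes, was 0.08 and became 0.19 with a mean of at least 20 TPM, where fewer members were counted. Without replicate 1 or without replicate 2, log2 Pnmt over Th was 0.50 to 0.62, catecholamine over cofactor genes 2.60 to 3.14, the downstream share of Ddc 81.2% to 94.2%, genes with 90% on 1 transcript 7 to 7 and genes at 1 TPM 10 to 10. The members' median difference between libraries ran from 0.01 (spike-in scaling) to 0.16 (TMM scaling). Of 50 recomputed single levels, 20 moved beyond 1 SD, among them all those rescaled to nuclear protein-coding genes, a change of unit. Those without replicate 1 or without replicate 2 lie within 1 SD by construction. The count therefore does not measure stability.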
